A study of Caenorhabditis elegans with 205 samples.

Results

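The srbc and srsx genes are 2 families of chemoreceptor genes in Caenorhabditis elegans, G protein-coupled receptors that span the membrane repeatedly and sit for the most part in the sensory cilia. Members were taken as every row of the deposited count table, made on the WormBase WS289 annotation, whose identifier carries a WormBase symbol of the form srbc- or srsx- followed by a number. Of 46927 genes, that rule found 71 srbc genes (70 symbols, since srbc-81 is carried by 2 identifiers) and 37 srsx genes. Every one is annotated as protein-coding. On chromosome V lie 68 srbc and 33 srsx genes, on chromosome IV 2 srbc and 4 srsx genes, and on chromosome I the single gene srbc-64. Positions are those of the deposited table and are the same in the WBcel235 annotation.

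The series counted transcripts in neurons sorted by fluorescence, in 53 neuron classes with 2 to 6 libraries each. The labels call 180 libraries of 46 classes untreated and describe worms raised on agar with E. coli NA22; the remaining 25 libraries, of the classes CEP, DVB, HSN, PVP, PVQ, RME and SIA, carry shorter descriptions. The labels name the sorted class and give no strain, age, sex or marker transgene, and they do not say that libraries of a class came from separate cultures, so p-values measure only the spread between libraries. Of the 53 classes, 17 were taken as ciliated sensory neurons: the amphid classes ADL, AFD, ASEL, ASER, ASG, ASI, ASK, AWA, AWB and AWC, the phasmid class PHA, and BAG, CEP, IL1, IL2, OLL and OLQ. The remaining 36 classes were interneurons, motor neurons and neurons without such cilia. Levels are given as CPM, the count of a gene relative to the library's total after scaling by TMM factors, and levels of different genes are compared per kilobase of exon unless a share of a class's summed CPM is named.

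In a worm's amphid, a pair of sense organs in the head, each ciliated neuron carries many receptor types, so that a few neurons cover many chemicals. A receptor bound by its ligand acts through a Gα subunit, and the signal then runs either through guanylyl cyclases and the cyclic-nucleotide-gated channel of TAX-2 and TAX-4 or through the TRPV channel of OSM-9 and OCR-2. Among the family members, SRBC-64 and SRBC-66 are known receptors for ascarosides, the dauer pheromone, in ASK, and srsx-3 is the usual marker of the AWC neuron that does not express str-2. Most other members have no known ligand.

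Library totals ran from 798303 to 24647021 counts with a median of 4692492, and a count of 3 corresponded to 0.643 CPM in the median library. Libraries are called by their label, such as ASKr46. Of 44 class markers with a sorted class of their own, 29 were highest in that class and 37 were among its 3 highest classes. The ASK markers sra-9, srg-8 and sra-7, the AFD guanylyl cyclases gcy-8, gcy-18 and gcy-23, and the AWA genes odr-10 and odr-7 were highest in their own class. The markers of PHA were low in the PHA libraries, with srb-6 at 2.32 CPM, srg-13 at 1.83 CPM and gcy-17 at 1.77 CPM on average, so the data bear that label out only weakly. The AWB marker str-44 was higher in AWA, at 673 CPM, than in AWB, at 10.8 CPM. The AWC marker odr-1 was higher in AWB, at 235 CPM, than in AWC, at 41.1 CPM, and srd-17 was 0.540 CPM in AWC. The ASI markers str-3 and gpa-4 were higher in AFD and AWA, at 28 and 230.6 CPM, than in ASI, at 0.980 and 217.4 CPM. The markers ceh-36 and daf-7 were highest in AWC and ASI. The ADL marker srh-127 was 21.7 CPM in ASK and 21.5 CPM in ADL. Summed over 5 genes, muscle markers spanned 1264 to 136032 CPM in libraries of ciliated classes and 1073 to 144570 CPM in those of the other classes, and their part in the levels below was not tested. The library AWBr51 stood apart from its class: 8 pan-neuronal genes summed to 382 CPM there, against 2729 to 7720 CPM in the other AWB libraries. The AWB marker str-1 was 8.13 CPM there, against 35.9 to 166.6 CPM in the others. Pharyngeal muscle genes summed to 1586 CPM there, against 114.1 to 344 CPM, and muscle genes to 7312 CPM, against 2777 to 3844 CPM. Their part in the AWB values was not tested. The library NSMr59 stood apart in these families, as described below.

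Transcripts of 52 members reached the detection limit in at least 1 class, set at a class mean of at least 2 CPM with at least 3 counts in every library of the class. These were 26 of 71 srbc genes (36.6%) and 26 of 37 srsx genes (70.3%). The class with the highest mean was ciliated for 24 of the 26 detected srbc genes and for 19 of the 26 detected srsx genes, and all 24 of those srbc genes led in amphid classes. The remaining srbc genes led in the interneuron classes AIN and AIY. For srsx-26, srsx-27, srsx-28 and srsx-29 the leading class, NSM, rested on NSMr59 alone. Without that library PHA or ASI led for these genes, and 23 of 26 srsx genes led in ciliated classes. Of the detected members, 19 of the 26 srbc genes and 15 of the 26 srsx genes were detected in a single class. The shares detected, led by ciliated classes or found in a single class were not counted over all genes. They are a description. At a stricter mean of 10 CPM the number detected fell to 34. In bulk libraries fewer expressing cells and less RNA per cell cannot be told apart, which holds for every level below.

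**Figure D1:**
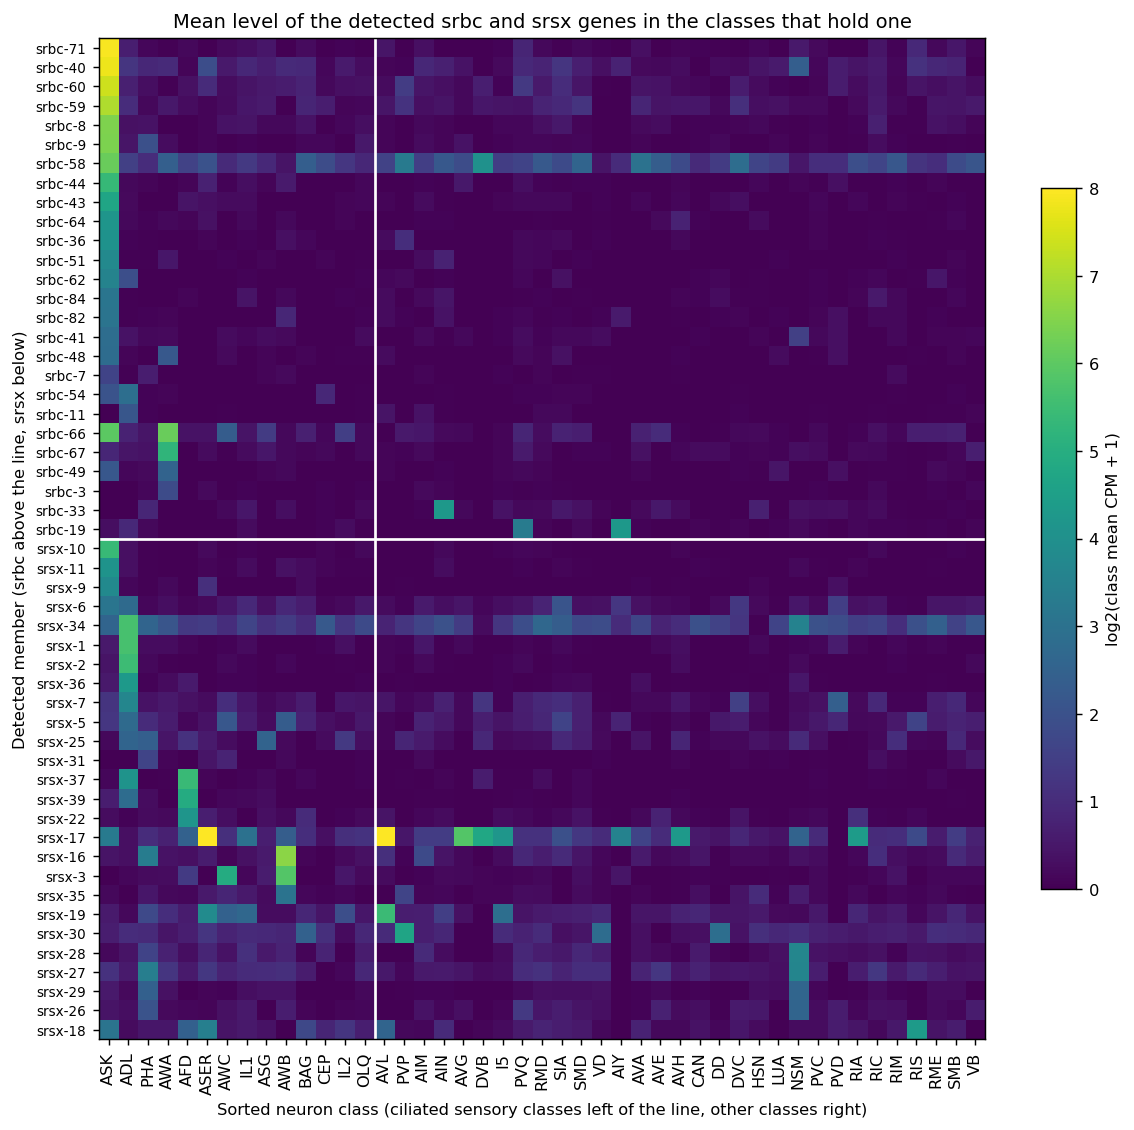
The heat map gives log2(class mean CPM + 1) for the 52 detected members (rows, srbc above the line and srsx below) in every class with at least 1 detected member (columns, ciliated classes left of the line). The srbc genes stack up in the ASK column, whereas the srsx genes are spread over ASK, ADL, AFD, AWB and several classes right of the line.

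Among 63 members that passed the filter on low counts, 63 differed among the 53 classes at an adjusted p under 0.05 (edgeR's quasi-likelihood test), and 95.5% of all genes tested did so, so the count says little about these families. The filter kept 32 srbc and 31 srsx genes. A member could pass through the very class in which it was high, so counts over the tested members are given as a description.

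When each class was set against all other libraries, 62 members were higher in at least 1 class, in 91 combinations of a member and a class. Over all genes 2.08% of such combinations were called higher. Of the 91, 78 (85.7%) fell in ciliated classes, which make up 32.1% of the classes and held 47.4% of the combinations called over all genes. When every other class was instead given equal weight, the members' share in ciliated classes was 48.03% (220 of 458 combinations), against 36.98% over all genes. A called member was found in 10 ciliated and 7 other classes. Of the srbc genes, 21 of 31 were called in a single class and 10 in 2 or 3 classes, while among 31 srsx genes 16 were called in a single class and 15 in 2 or 3. The same counts over all genes were not made, so these numbers are a description. Lower calls numbered 8, all in srsx genes, of which 7 were in the motor neuron class VC, against 12.7% of all genes lower there, and 1, srsx-34, in HSN, against 0.0539% of all genes. In VC 7 of the 63 tested members is near the share of all genes. The means of srsx-16, srsx-17 and srsx-18 in VC, and of srsx-34 in HSN, were under 1 CPM, so no fold change is given for them.

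ASK, an amphid class that senses pheromone, held the largest number. There 24 srbc and 6 srsx genes were higher than in the other classes, with log2 fold changes of 2.87 to 10.51, against 7.44% of all genes tested called higher in ASK. The count was 27 to 30 when each ASK library was left out in turn, and the median log2 fold change of all genes in ASK was -0.69. Of the detected members, 19 srbc and 7 srsx genes were detected in ASK, and 18 srbc and 4 srsx genes had their highest mean there. The summed srbc level was 463, 943, 1532 and 2075 CPM in ASKr46, ASKr47, ASKr48 and ASKr49. No other class came near: the next, AWA, had 28.1 to 255 CPM. The 6 genes with the most CPM held 74.4% of the summed ASK level.

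The highest of these per kilobase was srbc-71 (WBGene00044092, chromosome IV, 4223836 to 4225951, minus strand). It stood at 85.4, 136.5, 245 and 495 CPM in the ASK libraries, and no library of another class passed 3.05 CPM. The ASK mean was 241 ± 182.2 CPM (SD, n = 4), a log2 fold change of 10.51 against the other classes (adjusted p = 7.6e-75). Next came srbc-40 on chromosome V (715833 to 719831, minus strand), with 109.3, 164.8, 313 and 307 CPM in ASK, against at most 12.4 CPM elsewhere, in NSMr59. Its log2 fold change was 8.57 (adjusted p = 3.36e-58). Per kilobase of exon, srbc-71 reached 264 CPM, srbc-40 249 CPM, srbc-60 190.9 CPM and srbc-59 145.9 CPM in ASK.

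Several of the ASK genes are close neighbours. The genes srbc-58, srbc-59 and srbc-60 follow one another on the plus strand of chromosome V between 774995 and 781803. In ASK, srbc-59 was 36.8, 121.7, 177.4 and 183.98 CPM and srbc-60 was 48.6, 134.9, 215.99 and 267 CPM, and both stayed at or below 3.63 CPM in every library of another class. The gene srbc-58 was less exclusive. It averaged 71.4 ± 46.5 CPM in ASK, against 15.5 CPM in the next class, the motor neuron DVB, and it was detected in 18 classes. The library DVBr265 reached 19.2 CPM, above the lowest ASK library at 18.6 CPM, so the groups overlapped for srbc-58.

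A second neighbourhood on chromosome V held srbc-8 (7483332 to 7485100), srbc-7 and srbc-9 (7489134 to 7490440), all on the minus strand. In ASK, srbc-8 was 53.4, 69, 100 and 121.2 CPM and srbc-9 was 34.4, 81.8, 108.9 and 114.9 CPM. The lowest ASK values exceeded the highest values elsewhere, 1.51 CPM for srbc-8 and 5.03 CPM for srbc-9. Between them srbc-7 averaged 2.04 ± 0.89 CPM in ASK. Per kilobase of exon this was 2.24 CPM for srbc-7, against 91.8 CPM for srbc-8 and 98.1 CPM for srbc-9. A further pair, srbc-44 and srbc-43 (12787269 to 12790518, minus strand), averaged 40.3 ± 35.3 and 25.2 ± 23.8 CPM in ASK, and no other class passed 0.652 CPM on average for either gene.

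**Figure D2:**
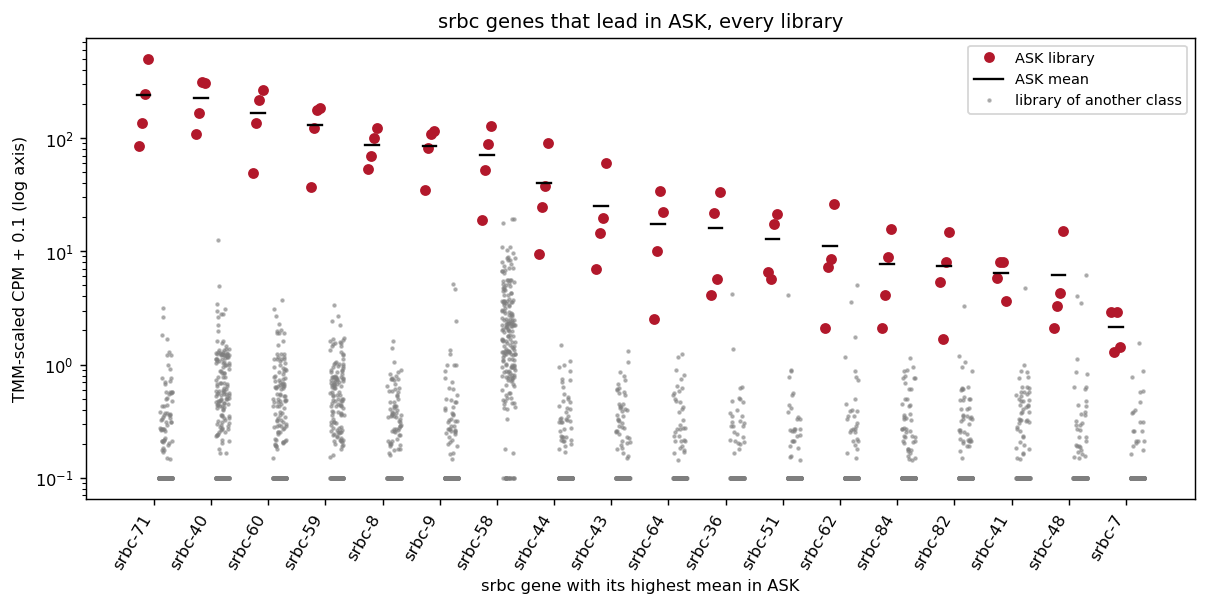
TMM-scaled CPM + 0.1 on a log axis for the 18 srbc genes detected with their highest mean in ASK. Red points are the 4 ASK libraries, black bars their mean and grey points every library of another class. The red points lie above all grey points for the strongest genes, and the grey cloud of srbc-58 reaches 19.2 CPM.

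The ASK libraries kept much the same order for most of these genes. ASKr46 was the lowest library for 20 of the 26 members detected in ASK and ASKr49 the highest for 17. Of 3 ASK markers, sra-7 followed the same order, at 18.2, 41.9, 72.6 and 86.4 CPM in ASKr46, ASKr47, ASKr48 and ASKr49. The others did so only in part: srg-8 was 12.95, 9.58, 13.5 and 18.3 CPM and sra-9 was 1.21, 9.18, 9.31 and 7.13 CPM. Pan-neuronal genes summed to 4229, 5267, 9301 and 9384 CPM and hypodermal genes to 389, 573, 77.7 and 52.1 CPM. The part of these in the members' spread was not tested.

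The srsx genes called in ASK included a run of 3 neighbours, srsx-9, srsx-10 and srsx-11 (chromosome V, 4971770 to 4979160, minus strand). The middle gene, srsx-10, was at 9.31, 26.3, 76.8 and 52.1 CPM in ASK, against at most 4.95 CPM elsewhere, in a VC library, a log2 fold change of 9.21 (adjusted p = 5.01e-61). In ASK, srsx-9 was at 5.26 to 22.8 CPM and srsx-11 at 6.07 to 23.6 CPM, against at most 1.88 and 0.784 CPM elsewhere. The groups did not overlap for any of the 3 genes. The gene srsx-6, called in both classes, averaged 7.62 ± 3.85 CPM in ASK and 5.78 ± 4.91 CPM in ADL.

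The pheromone receptor gene srbc-64 (WBGene00021477) was at 2.43, 9.98, 34 and 22.3 CPM in the ASK libraries, and no library of any other class exceeded 1.13 CPM. All ASK libraries lay above all the others, with a log2 fold change of 7.71 (adjusted p = 5.03e-43), and ASK was the single class in which it was detected. The second pheromone receptor gene, srbc-66 (WBGene00020746, chromosome V, 3530703 to 3532380, plus strand), was not confined to ASK. It was at 140, 89.4, 43.1 and 14.4 CPM in the AWA libraries, and at 23.5, 43.5, 97.8 and 82.9 CPM in the ASK libraries. Against the other classes its log2 fold change was 5.51 in AWA (adjusted p = 4.39e-10) and 5.10 in ASK (adjusted p = 6.75e-08). The AWA mean of 71.7 ± 55 CPM and the ASK mean of 61.9 ± 34.4 CPM came from overlapping ranges, and the difference between these classes was not tested. AWC followed at 4.02 ± 3.14 CPM, which was detected but not called (adjusted p = 0.914).

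The 3 genes whose class means were most like those of srbc-64, by Pearson's r of log2(CPM + 1) over 53 classes, were srh-135 (0.979), the piRNA gene 21ur-13933 (0.978) and F14F3.13 (0.976). For srbc-66 they were str-260 (0.941), srbc-48 (0.922) and srd-18 (0.918). These are descriptions over class means that come from the same libraries.

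AWA, which senses attractive odours, was second in the number of srbc calls. There 7 srbc genes and no srsx gene were higher than in the other classes, against 3.31% of all genes. Besides srbc-66 these included its neighbour srbc-67 (3538897 to 3541217, minus strand), at 66, 42, 32.7 and 6.17 CPM in AWA, while the highest value outside AWA was 2 CPM. Its log2 fold change was 7.78 (adjusted p = 5.15e-47). The pair srbc-48 and srbc-49 was shared between AWA and ASK: srbc-48 averaged 3.61 ± 2.09 CPM in AWA and 6.14 ± 6.07 CPM in ASK, and srbc-49 averaged 4.86 ± 3.9 CPM in AWA and 3.53 ± 2.44 CPM in ASK. AWAr20 was the lowest for 6 of the 7 members detected in AWA, and odr-10, the diacetyl receptor gene of AWA, was also lowest there, at 586 CPM, against 1607 to 9297 CPM in the other AWA libraries, as was the pan-neuronal sum, at 864 CPM against 3676 to 6502 CPM. Its intestinal genes summed to 3576 CPM, against 35.2 to 1158 CPM. The part of either in these values was not tested.

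**Figure D3:**
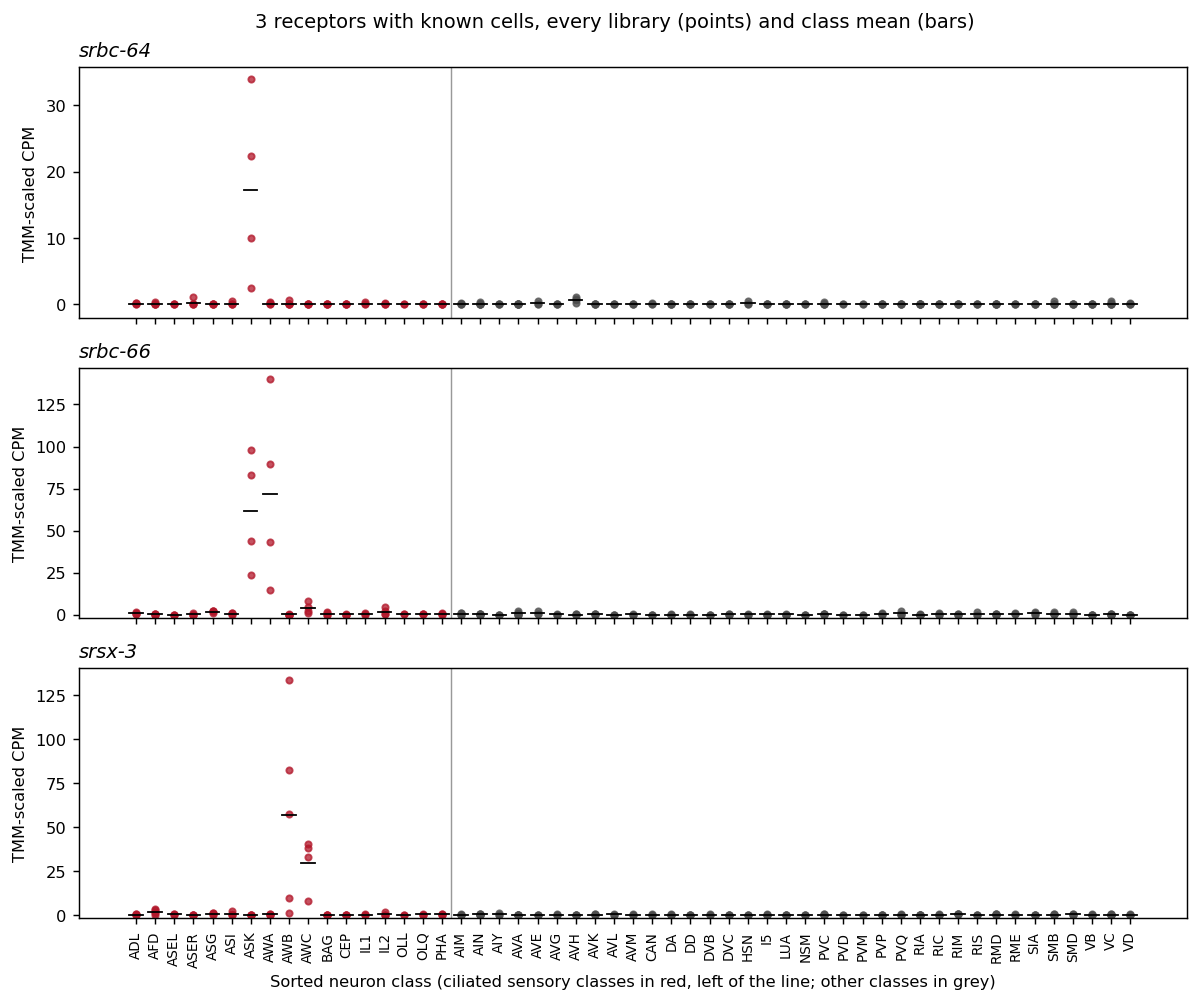
TMM-scaled CPM of srbc-64, srbc-66 and srsx-3 in every library (points) with class means (bars), ciliated classes in red on the left and other classes in grey on the right. Points above 10 CPM occur in ASK for srbc-64, in ASK and AWA for srbc-66, and in AWB and AWC for srsx-3.

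ADL, an amphid class that drives avoidance, held the largest number of srsx calls, although the summed srsx level was higher in ASER (428 CPM) and AVL (357 CPM) than in ADL (218.1 CPM). The order of ASER and ADL depends on the TMM factors, which were 0.28 to 0.49 in ASER and 0.73 to 1.53 in ADL. In ADL 9 srsx genes and 3 srbc genes were higher than in the other classes, with log2 fold changes of 3.08 to 9.37, against 7.37% of all genes. The strongest were srsx-1 (chromosome V, 17176716 to 17178067, minus strand) and srsx-2 (17436985 to 17438417, minus strand). The ADL libraries had 75.3, 84.3, 10.6 and 27.9 CPM of srsx-1, while the highest value outside ADL was 1.19 CPM, a log2 fold change of 8.93 (adjusted p = 1.07e-64). They had 62.5, 87, 6.72 and 17.5 CPM of srsx-2, against at most 0.891 CPM. The genes srsx-34 and srsx-36 averaged 50.5 ± 37.6 and 18.6 ± 13.1 CPM in ADL. Whereas srsx-36 stayed at or below 2.44 CPM in every library of another class, srsx-34 was detected in 19 classes, with NSM next at 10.7 ± 2.55 CPM.

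The spread within ADL ran across genes. ADLr173 was the lowest for all 12 members detected in ADL and ADLr172 the highest for 11. The ADL marker sre-1 ran the same way, at 226.5, 274, 40 and 66.6 CPM in ADLr171, ADLr172, ADLr173 and ADLr174. The ADL markers srh-220, at 34.9, 32.2, 5.13 and 7.88 CPM, and srh-127, at 40.4, 29.1, 6.01 and 10.6 CPM, were also lowest in ADLr173. Both were highest in ADLr171. Pan-neuronal genes summed to 10365, 11764, 1730 and 2890 CPM. The part of these in the members' spread was not tested. Every ADL library lay above every other library for srsx-1, srsx-2, srsx-34 and srsx-36. Members named by fold, here and in other classes, were picked for such separation, so it is a description. Its share over all genes was not counted.

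AFD, the thermosensory neuron, shared a pair of srsx genes with ADL. The neighbours srsx-39 and srsx-37 (chromosome V, 15255132 to 15259149, minus strand) averaged 29 ± 11.9 and 41.7 ± 13.8 CPM in AFD (n = 5) and 6.16 ± 2.32 and 16.1 ± 8.51 CPM in ADL (n = 4). In AFD, srsx-37 was 22.2, 33.8, 57.3, 49.5 and 45.9 CPM, and in ADL it was 22.4, 23.9, 6.01 and 12.2 CPM, so the 2 classes overlapped for srsx-37. Against all other libraries srsx-37 was also called higher in ADL (adjusted p = 0.00191), whereas srsx-39 was not (adjusted p = 0.0576). In AFD, srsx-39 was 15.6 to 48.2 CPM, beyond the 9.24 CPM that was the highest value outside AFD. Only 3 members were higher in AFD than elsewhere, srsx-37, srsx-39 and srsx-22, whereas 10.3% of all genes were. The gene srsx-22 was at 6.57 to 33.8 CPM in AFD, against at most 2.9 CPM in other libraries.

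AWB and AWC, which sense repellent and attractive odours, shared srsx-3 (WBGene00022408, chromosome V, 7936144 to 7937252, minus strand). In AWB it was at 57, 1.16, 9.7, 133 and 82.4 CPM, and in AWC it was at 32.6, 40.2, 8.07 and 37.7 CPM. The groups overlapped, and beyond these 2 classes the highest mean was 1.59 CPM, in AFD. The log2 fold change against the other classes was 6.14 in AWB (adjusted p = 3.0e-15) and 4.41 in AWC (adjusted p = 4.2e-04). Since srsx-3 marks the AWC cell without str-2, str-2 was looked at beside it: it averaged 4.51 ± 2.78 CPM in AWC and had no counts in AWB. The labels give AWC as 1 class, so its left and right cells cannot be told apart. The genes most like srsx-3 over the 53 classes were srt-43 (r = 0.952), srsx-14 (0.894) and srt-48 (0.871).

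In AWB 7 srsx genes and 1 srbc gene were higher than in the other classes, against 2.31% of all genes. Among them was srsx-16 (chromosome IV, 5615408 to 5619743, minus strand), at 162.1, 5.23, 55.3, 140 and 117.7 CPM in AWB, against at most 15.7 CPM in other libraries, in PHA. The second value belongs to AWBr51, where srbc-32 (chromosome V, 3485549 to 3486957, minus strand) was 0.581 CPM, against 21.3 to 41 CPM in the other AWB libraries. With that library 1 srsx gene and no srbc gene counted as detected in AWB, and without it 6 srsx genes and 1 srbc gene did. The 7 srsx and 1 srbc calls were the same in number without it, and the log2 fold changes were 6.46 for srsx-3, 7.69 for srsx-16 and 9.02 for srbc-32, against 6.14, 7.38 and 8.70 with it.

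PHA, a ciliated class of the tail, had 7 members higher than in the other classes, 5 srsx and 2 srbc genes, against 0.529% of all genes. The count was 4 without PHAr205 and up to 7 without another PHA library. Values were low. The gene srsx-27 was at 3.95, 14, 11.3 and 9.59 CPM in PHA, srsx-29 at 1.24, 5.1, 6.5 and 5.19 CPM, and srsx-26 at 1.69, 5.1, 3.19 and 2.6 CPM. These genes, chosen after their values were seen, lie in a row with srsx-28 on the plus strand of chromosome V (10148652 to 10156381). The annotated exons of srsx-26 and srsx-27 share 576 bases on the same strand and those of srsx-26 share 300 bases with C51E3.9, so the split of reads among them is uncertain.

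Genes of this row were also called higher in ASI, which secretes the TGF-β ligand DAF-7, and in NSM, a serotonergic neuron of the pharynx. The calls were srsx-26, srsx-27 and srsx-29 in PHA, srsx-26, srsx-27 and srsx-28 in ASI, and all of these in NSM. No srsx gene reached the detection limit in ASI. The limit needs 3 counts in every library, which took 3.32 CPM in ASIr154, a library of 1193796 counts. In ASI, srsx-27 was at 6.01, 12.4, 0 and 7.73 CPM, with the 0 in ASIr154. In this class 5 members were called higher, against 1.56% of all genes. That number was 1 without ASIr155 and at most 4 without any other ASI library. In NSM, srsx-27 was at 34.3 CPM in NSMr59 and had no counts in NSMr68 and NSMr69. The other genes of the row showed that split too, with 14.6 CPM of srsx-26, 35.4 CPM of srsx-28 and 14.9 CPM of srsx-29 in NSMr59, and so did srsx-32, elsewhere on chromosome V, with 30.4 CPM. These compare with at most 0.477 CPM in NSMr68 and NSMr69. Members led by other classes could show the split as well. In NSMr59, NSMr68 and NSMr69, srsx-17 was at 14.6, 0 and 0 CPM and srbc-40 at 12.4, 0.239 and 0 CPM. By contrast srsx-34 was at 7.73, 11.9 and 12.3 CPM. None of these was called in NSM. In NSM 5 members were called higher, against 1.62% of all genes, and no call was left without NSMr59. Markers of ASI and PHA were mixed in NSMr59. Of 3 ASI markers daf-7 was 32.5 CPM there, against 0.477 and 6.17 CPM in the other NSM libraries, gpa-4 was 0, against 1.67 and 0.882 CPM, and str-3 was 0 in all NSM libraries. Of 3 PHA markers srb-6 was 1.98 CPM and gcy-17 0.180 CPM, against 0 in the others, and srg-13 was 0 in all. The PHA markers were low in PHA itself, and str-3 was low in ASI, so their zeros in NSM tell little about other cells. The part of other cells in these values was not tested.

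**Figure D4:**
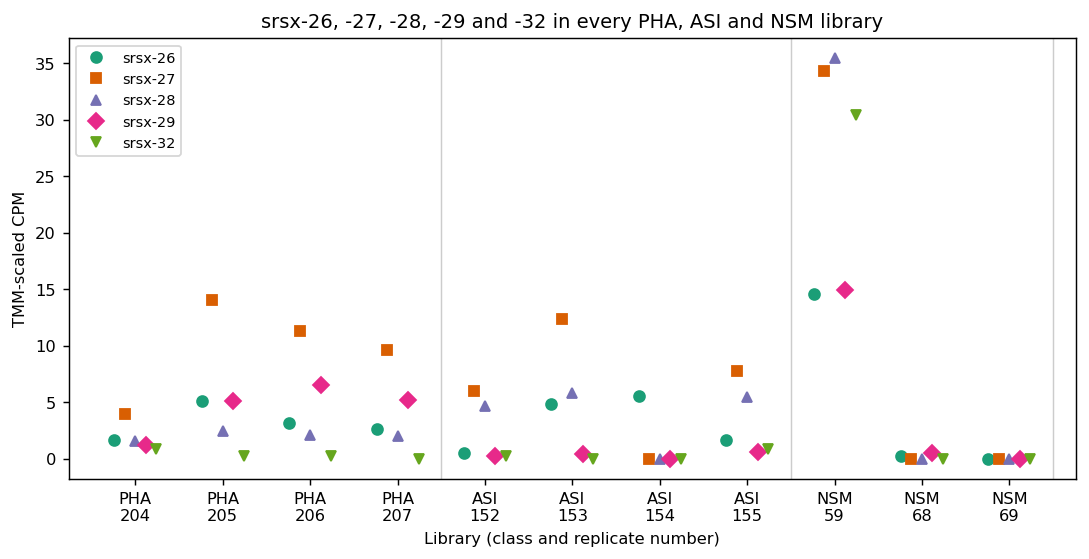
TMM-scaled CPM of srsx-26, srsx-27, srsx-28, srsx-29 and srsx-32 in each library of PHA, ASI and NSM. NSMr59 carries all 5 genes at 14.6 to 35.4 CPM, while the points of NSMr68 and NSMr69 sit at or near 0.

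Some srsx genes led outside the odour-sensing classes or outside ciliated neurons altogether. The highest level of either family per kilobase, 418 CPM, was that of srsx-17 (WBGene00019032, chromosome V, 5927647 to 5930417, plus strand) in ASER, the right taste neuron. It was at 622, 291, 503 and 160 CPM in ASER and at 367, 256 and 290 CPM in AVL, a motor neuron of the defecation cycle. The ranges overlapped around means of 394 ± 207.5 CPM in ASER and 304 ± 57 CPM in AVL, and the difference between these classes was not tested. TMM factors were 0.28 to 0.49 in ASER and 0.77 to 0.86 in AVL, so the order of these classes depends on that scaling. AVG followed at 57.4 ± 27 CPM, and srsx-17 was detected in 10 classes. The log2 fold change against the other classes was 5.53 in ASER (adjusted p = 1.05e-10) and 4.69 in AVL (adjusted p = 1.26e-04). In ASER 3 members were called higher, all srsx, against 3.41% of all genes.

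The same pair of classes recurred for srsx-19 (chromosome V, 13887658 to 13889662, plus strand) in the opposite order. It was at 56.9, 34.3 and 36.2 CPM in AVL and at 14.5, 3.61, 21.9 and 14.7 CPM in ASER, and all AVL libraries lay above all other libraries. The neighbour of srsx-17, srsx-18 (5922536 to 5924297), led in RIS, a neuron active in sleep, at 31.8, 23 and 3.39 CPM, and ASER followed at 10 ± 5.59 CPM. Without RISr129 the RIS call of srsx-18 was lost, at a log2 fold change of 3.89 (adjusted p = 0.109).

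Further cases outside ciliated neurons were single genes. In the interneuron PVP, srsx-30 (chromosome V, 10158828 to 10160672, plus strand) was at 39.9, 30.6, 17.6 and 9.94 CPM, above all other libraries, of which the highest was 8.96 CPM in VD. Its exons overlap C51E3.10 on the opposite strand, so part of its counts could belong to either. In the interneuron AIN, srbc-33 (chromosome V, 3482960 to 3484802, minus strand) ranged over 6 libraries from 5.57 to 27.7 CPM, against at most 1.48 CPM elsewhere. The gene srbc-19 (chromosome V, 2164788 to 2166779, minus strand) was at 4.33, 3.46 and 46.7 CPM in AIY and at 11.7, 0.331, 22.5 and 1.17 CPM in PVQ. Outside the classes described above, srsx-25 was called in ASG, but not without ASGr13, srsx-31 in AWC, and srsx-35 in PVP. The 2 calls in AWC stood against 2.5% of all genes, and the 2 in PVP against 2.84%, so both are near the share of all genes. In AWC 1 was left without AWCr156, and in PVP 1 was left whichever library was dropped. For srbc-19 the AIY call was lost without AIYr67, which held the highest value. In PVQ the 2 libraries with the most srbc-19 were also those with the most sra-6, a gene of PVQ and ASH, at 138.7 and 119.4 CPM, against 1.33 and 8.71 CPM in the other PVQ libraries. A further ASH marker, nhr-79, ran the other way, at 0 and 0.375 CPM in those 2 libraries, against 2.12 and 7.72 CPM in the others. Whether other cells took part was not tested.

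When counts were summed within classes and the 17 ciliated classes compared with the other 36, 5 of the 14 members tested were higher in ciliated classes, while 11.5% of all genes were. They were srbc-66 with a log2 fold change of 4.90 (adjusted p = 1.81e-08), srbc-40 with 4.75 (adjusted p = 1.69e-07), and srsx-6, srsx-5 and srsx-25 with 1.68, 1.63 and 1.59. None was lower by edgeR at an adjusted p under 0.05, while 4.8% of all genes were. None was lower at an unadjusted p under 0.05 or by DESeq2. When ASER was left out, srsx-17 became lower in ciliated classes, at a log2 fold change of -2.58 (adjusted p = 0.0396). The filter drops genes that are high in few classes, which most members are. Without it, 35 of 69 srbc and 21 of 37 srsx genes were higher and none lower, against 11.6% of all genes higher. The median log2 fold change of these members was 1.69, against -0.06 over all 38360 genes. No class was left out of the fit without the filter. How many of its calls rest on a single class, such as ASK, was therefore not tested. They are not evidence of a difference shared by the ciliated classes. With the filter, the count of 5 was 2 when ADL, ASI, ASK or PHA was left out, 3 without CEP, and 4 to 6 without any other ciliated class.

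The genes that act downstream of such receptors were higher in ciliated classes, with different channel genes in ASK and ADL. Of 19 chemosensory transduction genes, 17 were higher in the ciliated classes and none lower, with a median log2 fold change of 2.76, against -0.05 over all 16301 genes. In ASK 12 of the 19 were higher and none lower, with a median of 2.91, against -0.69 over all 20427 genes. These included the Gα subunit genes gpa-2, gpa-3 and gpa-15, the guanylyl cyclase genes daf-11 and odr-1, and both channel genes, with tax-2 at 89.3 ± 54.3 CPM and tax-4 at 118.96 ± 51.3 CPM. In ADL 10 were higher, with a median of 2.39 against -0.20 over all genes. There the channel genes were osm-9, at 490 ± 351 CPM, and ocr-2, at 144.7 ± 136.5 CPM, while tax-2 was 1.87 ± 1.52 CPM and tax-4 was 2.60 ± 1.87 CPM. The receptor-trafficking genes odr-4 and odr-8 were higher in both ASK and ADL. In AWA 6 of the 19 were higher, among them osm-9 and ocr-2, and in AWB 4 were. In AFD tax-2 and tax-4 were higher and 1 gene was lower. None of the 19 was called higher in AWC, ASER, PHA, ASI, NSM or AIN, while gpa-2 was in AVL and osm-9 in PVP. The median log2 fold change of the 19 was 1.16 in AWA, 0.67 in AWB, 0.57 in ASI, 0.34 in AWC and 0.01 in PHA. It was -1.39 in ASER and -2.28 in AFD, against -0.74 and -0.63 over all genes. A gene without a call was not always low. In AWC, for instance, gpa-13 averaged 50.3 CPM and odr-1 41.1 CPM, against medians over classes of 0.962 and 0.928 CPM.

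Of 6 ascaroside receptor genes outside the families, none was higher in ASK. There daf-37 averaged 57.2 ± 26.9 CPM and daf-38 averaged 77.5 ± 24.7 CPM, neither called (adjusted p = 0.128 and 0.952). In ASI 3 of the 6 were higher, srg-36, srg-37 and srx-43, with srx-43 at 93.3 ± 55.2 CPM, while srbc-64 and srbc-66 were not called there. In ADL 2 were higher, daf-38 and srx-44. Of 6 genes of AWC left-right asymmetry, str-2 was the single one called in AWC.

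Neighbouring members of a family shared their leading class in most pairs where both were detected. Pairs were formed only from members that follow one another along the chromosome. Of 55 such pairs of the same family within 10 kb of each other, 19 had both genes detected, and 13 of these (68.4%) shared the leading class. Among the other 631 pairs of detected genes of a family, 29.5% did so. The other pairs include close genes with a member between them, such as srbc-8 and srbc-9. The 2 shares thus do not set near pairs against far ones. Of the 13 pairs, 3 are those within srsx-26 to srsx-29, which shared NSM through NSMr59, and srsx-26 and srsx-27 also share exon bases. Without NSMr59, 11 of 19 neighbouring pairs (57.9%) shared the leading class, against 29.8% of the other pairs. Pairs share genes and libraries, so the 2 shares are given with no test. Over 53 classes the median r of the class means within these 19 pairs was 0.850 and their median gap was 713 bases. That median falls on srsx-27 with srsx-28 and was not taken again without NSMr59. No r was taken for the other pairs, so it is a description. The highest r values among the 19 pairs were those of srsx-39 with srsx-37 (0.977), srsx-10 with srsx-11 (0.976) and srbc-44 with srbc-43 (0.974). Adjacent genes could also part. The gene srbc-33 led in AIN, while srbc-32 next to it led in AWB and srbc-36 beyond that led in ASK, at 16 ± 13.8 CPM. The pair srsx-29 and srsx-30, separated by 2446 bases, had an r of 0.040.

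**Figure D5:**
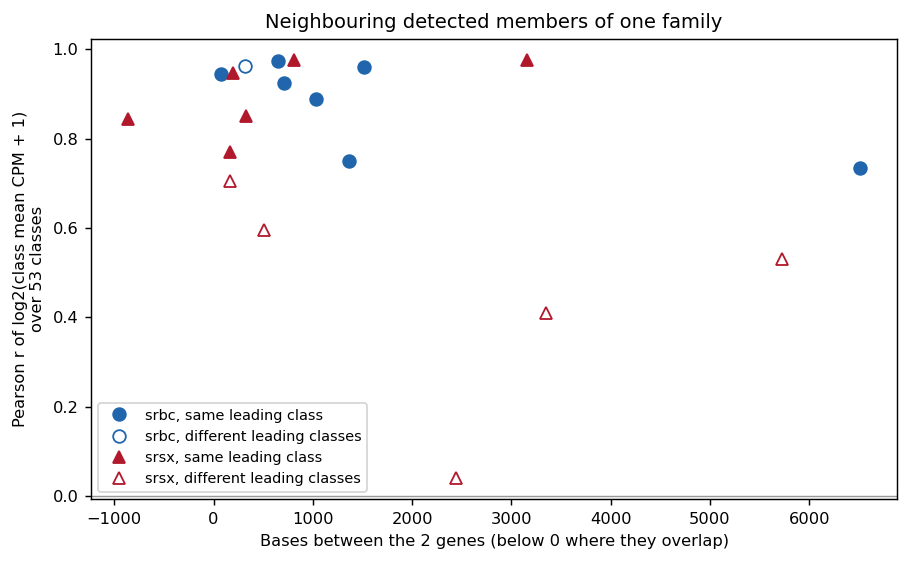
For the 19 pairs of neighbouring members with both genes detected, Pearson's r of log2(class mean CPM + 1) over 53 classes (vertical axis) is plotted against the bases between the genes (horizontal axis, below 0 where they overlap). Filled symbols share the leading class, and the lowest open symbol is srsx-29 with srsx-30 at 0.040.

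The remaining 56 members did not reach the detection limit, 45 srbc and 11 srsx genes. In 41 members the leading class had a mean under 1 CPM, and 2 rows, both named srbc-81, had no count in any library. Such levels are too low to be told from none at these depths. The limit also left out members held down by a single library, chosen here after their values were seen. The gene srbc-83 was at 0.810 to 34.7 CPM in ASK with at most 0.970 CPM elsewhere, srsx-14 was at 0.581 to 22.4 CPM in AWB, and srsx-33 was at 0.581 to 17.9 CPM in AWB. All 3 were called higher in those classes.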

How the data were processed

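The authors deposited whole-number counts for each gene and each library of sorted neurons in 1 table, with exon positions and lengths per the file headers and the WS289 release in its name. The submitters' processing notes list STAR 2.7.7a, UMI-tools 1.1.4 and Subread 2.0.3 with featureCounts, without settings, so the treatment of strand, of shared reads and of molecular identifiers is not given in the sources used here. Counts of overlapping, antisense or near-identical genes are therefore uncertain, and limits cover counting error only. Another 14 per-sample columns match no library used here and were left out. Symbols came from the WBcel235 annotation, Ensembl release 115, where every member has the positions of the table; the neighbour and overlap checks use the table's exons.

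Counts were scaled with TMM factors (0.256 to 2.03) in edgeR 4.0.16 with R 4.3.3. Ribosomal RNA took 9.77% to 79.2% of the counts. Low genes were removed with filterByExpr, given the class (20427 genes; 16301 for class sums). edgeR's quasi-likelihood test with a trended dispersion was run for all classes at once, for each class against all other libraries as 1 group, and for sums of counts per class, with Benjamini-Hochberg adjustment over all genes within each comparison and a threshold of 0.05. Because classes share the same other libraries, the comparisons are not independent. In fits that left a library out, the dispersion trend of all libraries was held. limma 3.58.1, DESeq2 1.42.0, RLE scaling, no filter, a subset of 180 libraries, and left-out libraries and classes were alternatives, of which those without AWBr51 and NSMr59, also for leading classes and neighbours, were chosen after seeing the data. Scripts were tested on simulated data. No 2 libraries held identical counts, and the lowest chi-square per degree of freedom over 317 pairs within classes was 4.49. Members named are srbc-64, srbc-66 and srsx-3; in each family the 12 with the highest class mean and up to 10 by fold that were called and lay above every other library; any other member named (such as srbc-7, srbc-19, srbc-33, srbc-36, srbc-48, srbc-49, srsx-5, srsx-6 or srsx-25) was chosen after its values were seen. Members and gene lists were chosen with earlier results of these data known. Of the listed symbols 2 were not found. Python 3.11.15 with pandas 2.3.3 did the summaries.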

Additional observations from a re-analysis of the deposited data

How the results depend on the processing

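No paired analysis was possible because replicate numbers are unique to each library. Under RLE scaling, no filter, limma-voom, the 180 libraries whose description names the kit and left-out libraries, the count of members differing among classes (63) and the count higher in at least 1 class (62) stayed within 1.5 times. The 29 named members stayed higher in their leading class wherever these fits gave a value, except srsx-18 without RISr129 (log2 fold change 3.89). The leading class was chosen by level in these same counts, and most named members by level or fold. That outcome was therefore close to fixed in advance. The number of combinations of a member and a class was 458 in place of 91 when each class was set against the unweighted mean of the other class coefficients, and all 91 were among them; over left-out libraries it was 78 to 91. Without NSMr59 it was 86 and without AWBr51 it was 91, both chosen after seeing the data. Members higher in ciliated classes numbered 56 without the filter, 2 by limma-trend and 7 by DESeq2, against 5. With the filter they numbered 2 to 6 over left-out libraries and classes. The 56 were not counted again with classes left out. Members lower numbered 0 to 1. Of the detected members 34 reached 10 CPM, against 52 at 2 CPM. Depth limits the low members: the floor of 3 counts was 0.28 to 0.68 CPM in ADL libraries and 1.7 to 2.91 CPM in AWB libraries.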
